A study of Mus musculus with 12 samples.

Results

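The 10 genes described here make new fatty acids, lengthen and desaturate them, and start their esterification to glycerol: *Acaca*, *Acacb*, *Fasn*, *Elovl6*, *Scd1*, *Scd2*, *Fads1*, *Fads2*, *Gpam* and *Agpat2*. They were chosen by symbol, as the lipogenesis genes that the study listed from these same hearts, so the list is not independent evidence of its own direction. All 10 were found among the 19308 genes of the count table, and all 10 passed the filter on low counts together with 14094 genes in all. RNA was sequenced from 12 whole hearts of C57BL/6 mice, with 3 hearts in each of 4 groups. WT mice and *Fabp3*-null (F3-KO) mice, a global CRISPR-Cas9 knockout of the fatty acid carrier FABP3, had transverse aortic constriction (TAC), which loads the left ventricle with pressure, or a sham operation. Surgery was done at 8 weeks of age and hearts were taken 1 week later, with isoflurane anaesthesia shared by all groups. The labels number the hearts but name no litter, cage or sequencing batch, and a global knockout reports on every cell type of the heart together. Because whole tissue was sequenced, fewer cells of a type and less RNA per cell cannot be told apart.

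Lipogenesis starts in the cytosol with acetyl-CoA carboxylase, which makes malonyl-CoA. Fatty acid synthase joins malonyl-CoA units into palmitate, ELOVL6 lengthens palmitate to stearate, and the stearoyl-CoA desaturases turn saturated chains into monounsaturated ones. FADS2 and FADS1 are the desaturases that turn essential fatty acids into long polyunsaturated ones, and GPAM and AGPAT2 carry out the opening steps of phosphatidic acid synthesis, from which both triglycerides and phospholipids are made. The heart burns fatty acids rather than storing them, and in its muscle cells much of the malonyl-CoA comes from the enzyme encoded by *Acacb*, which sits at the mitochondrial surface and restrains entry of fatty acids for oxidation.

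Library totals were 10424289 to 14371981 estimated counts. *Fabp3* lay at 2117 to 3064 CPM (read counts scaled to library size, with the TMM correction for library composition) in the 6 WT hearts and at 1002 to 1143 CPM in the 6 F3-KO hearts, so the labels matched the counts and the null hearts still held transcript. Averaged over both genotypes, TAC raised *Nppb* by 1.86 and *Acta1* by 3.36 on the log2 scale (adjusted p = 0.0105 and 0.0248, edgeR). *Nppb* and *Acta1* are markers of cardiac hypertrophy. They were the 2 called of 4 such genes checked, all 4 with a fitted value above 0. The other genes, *Myh7* and *Nppa*, did not follow the operation in every heart. *Myh7* had 9179 CPM in WT sham replicate 2 and 174 CPM in F3-KO TAC replicate 1. *Nppa* had 153 CPM in F3-KO TAC replicate 1 and 339 CPM in F3-KO sham replicate 1. The WT sham heart of replicate 2 stood apart in the lipogenesis genes, being the lowest of the 12 hearts in *Fasn*, *Elovl6*, *Gpam* and *Agpat2* and the highest in *Scd2*. The same heart stood apart from the other WT sham hearts in summed markers, with 1435 CPM of fibroblast markers against 689 and 573, 426 CPM of macrophage markers against 197 and 207, and 60195 CPM of cardiomyocyte markers against 78643 and 77387. Their part in its lipogenesis values was not tested. Cardiomyocyte markers, 7 genes including *Myh6* and *Tnnt2*, summed to 52256 to 91016 CPM over the 12 hearts. Marker sums, here and below, were scaled to library totals alone, without the TMM correction.

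The isoform that limits oxidation, *Acacb*, was the most abundant of the 10 genes per length, and *Elovl6* the least. Divided by the summed exon length, *Acacb* had a median level over 12 hearts of 50.3 CPM per kb. *Agpat2* followed with 37.2 CPM per kb and *Gpam* with 34.8 CPM per kb, and the ranges of these 3 genes over hearts overlapped. *Fads1* came next at 9.003 CPM per kb. Its lowest heart, at 7.22 CPM per kb, lay above the highest heart of *Scd2* and just under the highest heart of *Scd1*, at 7.32 CPM per kb. *Scd2* (4.26), *Scd1* (3.23), *Fasn* (2.84) and *Fads2* (2.77 CPM per kb) overlapped with one another. *Acaca* had a median of 1.88 CPM per kb and overlapped with *Scd1*, *Fasn* and *Fads2*. *Elovl6* had 0.213 CPM per kb, with 7 to 33 counts per heart, so that it was measured with the widest error of the 10.

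Within each family of related genes the listed gene was not always the most abundant in the heart. Genes of a family need not carry out the same step, and enzyme activity was not measured here. *Elovl1* and *Elovl5*, elongases of other chain lengths, had medians of 14.8 and 14.04 CPM per kb against the 0.213 of *Elovl6*. *Fads3*, a further gene of the front-end desaturase cluster, had 26.7 CPM per kb, above *Fads1* and *Fads2* in every heart. Among the stearoyl-CoA desaturases *Scd4* had 6.96 CPM per kb and reached 39.7 CPM per kb in WT TAC replicate 1. Its lowest heart had 3.32 CPM per kb, so that its range overlapped with those of *Scd1* and *Scd2*. *Gpam*, the mitochondrial glycerol-3-phosphate acyltransferase, was the highest of its family, with *Gpat4* at 9.44 and *Gpat3* at 5.61 CPM per kb. *Agpat2* shared its family's level with *Agpat1* (47.8 CPM per kb) and *Agpat3* (33.5 CPM per kb).

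**Figure D1:**
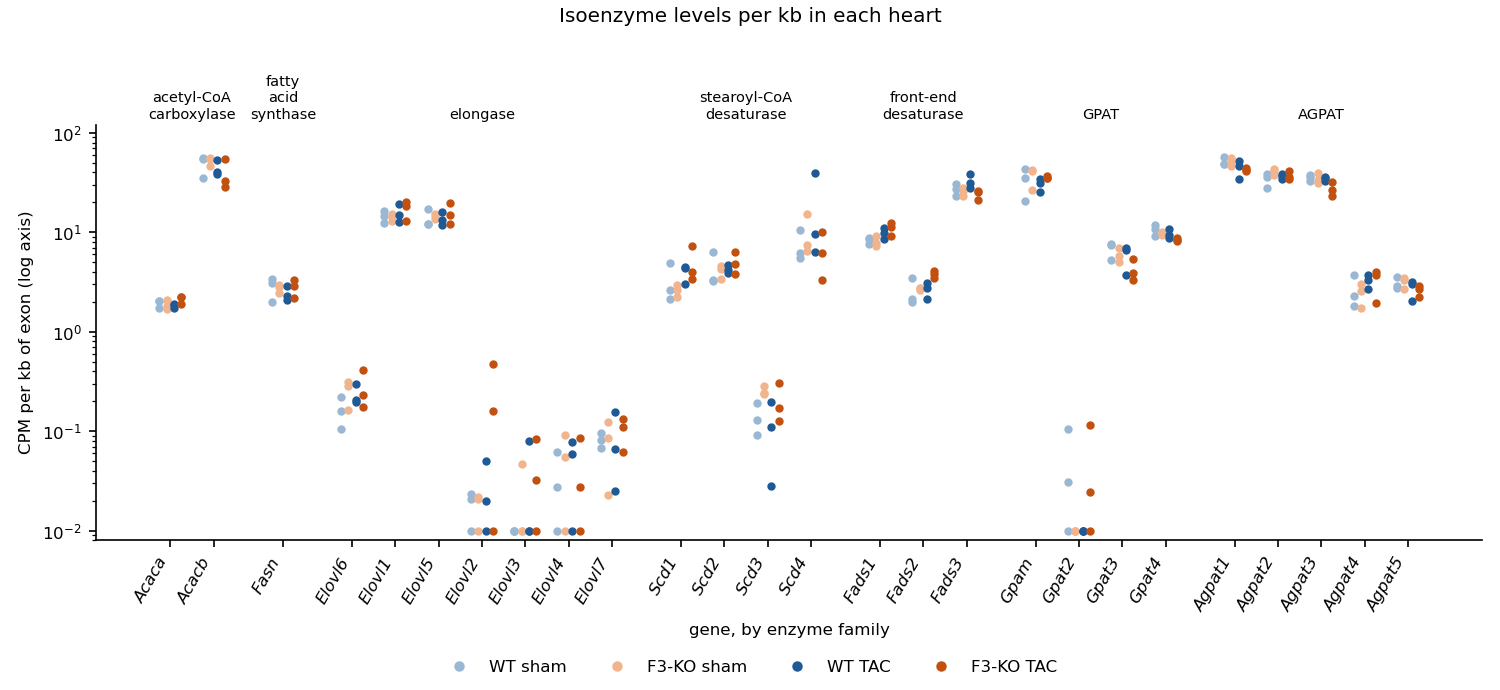
Level of each gene in each heart, in CPM per kb of exon on a log axis, with related genes grouped by family and the 4 groups in colour. Each point is 1 heart and values under 0.01 are drawn at 0.01. *Acacb* lies far above *Acaca*, *Elovl6* lies below *Elovl1* and *Elovl5*, and *Fads3* lies above *Fads1* and *Fads2*.

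Across the 12 hearts, *Elovl6* and *Scd1* varied most, with a highest heart 3.904 and 3.44 times the lowest. *Acaca* varied least, at 1.32 times. The other 7 genes lay between 1.55 times (*Agpat2*) and 2.11 times (*Gpam*). No heart was high or low in all 10 genes at once. F3-KO TAC replicate 1 was the highest in *Elovl6*, *Fads1* and *Fads2*, F3-KO TAC replicate 2 was the highest in *Acaca* and the lowest in *Acacb*, and F3-KO TAC replicate 3 was the highest in *Scd1*.

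**Figure D2:**
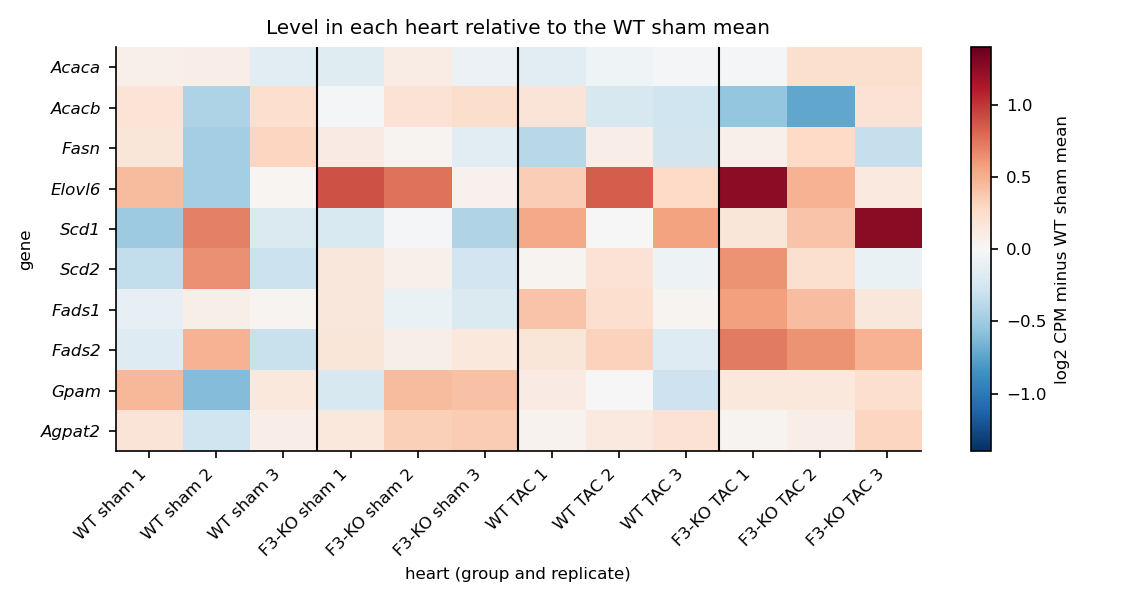
Log2 CPM of each gene in each of the 12 hearts, minus the mean of the WT sham hearts. Red is higher and blue lower than that mean. *Scd1* in F3-KO TAC replicate 3 stands at 1.26 and *Elovl6* in F3-KO TAC replicate 1 at 1.25, while WT sham replicate 2 is blue in *Fasn*, *Elovl6*, *Gpam* and *Acacb* and red in *Scd1*, *Scd2* and *Fads2*.

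The study asked how FABP3 bears on the metabolism of the pressure-loaded heart, and for lipogenesis this is addressed by F3-KO TAC against WT TAC hearts. None of the 10 genes passed the test, and the desaturase gene *Fads2* came closest. At an adjusted p under 0.05 (edgeR's quasi-likelihood test, adjusted over 14094 genes), 0 of 10 genes were called, beside 0.078% of all genes tested. DESeq2 also called 0 of 10. With the p left unadjusted and a limit of 0.05, each tool gave 1 of 10, *Fads2*, beside 10% of all genes by edgeR. The fitted fold change was above 0 for 9 of 10 genes, beside 53.1% of all genes, and the median of the 10 was 0.21 on the log2 scale against 0.022 over all genes. In 3 of 10 genes, *Fads2*, *Acaca* and *Gpam*, every F3-KO TAC heart lay above every WT TAC heart, beside 6.3% of all genes.

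*Fads2* encodes the enzyme that opens polyunsaturated fatty acid synthesis. Its level was 8.71, 9.69 and 6.80 CPM in the WT TAC hearts, in the order of their replicate numbers. The F3-KO TAC hearts, in the same order, held 12.9, 12.1 and 10.9 CPM. The lowest F3-KO TAC heart was above the highest WT TAC heart, and above 5 of the 6 sham hearts, which ranged from 6.22 to 10.9 CPM. The fold change was 1.42 (log2 0.51 ± 0.21, SE, 95% interval 0.04 to 0.97, adjusted p = 0.47, edgeR). Its partner *Fads1*, which acts after it, had 37.9, 33.8 and 29.5 CPM in WT TAC and 42.9, 38.8 and 32.1 CPM in F3-KO TAC hearts. These groups overlapped, and the difference of 0.17 had an interval of -0.15 to 0.49.

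The 2 carboxylase genes, whose products make malonyl-CoA at different places, pointed in opposite directions without either passing the test. *Acaca* had 16.4, 17.5 and 17.9 CPM in the WT TAC group and 17.9, 21.4 and 21.4 CPM in the F3-KO TAC group. The groups were separated only in the later digits, 17.904 against 17.911 CPM. The log2 fold change of *Acaca* was 0.23 (95% interval -0.06 to 0.51, adjusted p = 0.56, edgeR). *Acacb* had 472, 357 and 343 CPM in the WT TAC group and 286, 252 and 481 CPM in the F3-KO TAC group. The first and second F3-KO TAC hearts were the lowest of the 12 and the third was among the highest, so the groups overlapped and the difference of -0.20 had an interval of -0.75 to 0.35, and was -0.54 without F3-KO TAC replicate 3. *Fasn*, the synthase itself, had 20.9, 29.3 and 23.0 CPM in WT TAC and 28.9, 33.4 and 21.9 CPM in F3-KO TAC hearts, with an interval of -0.26 to 0.67 around 0.20.

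For elongation and monounsaturation the error was larger still. *Scd1*, the chief stearoyl-CoA desaturase gene of liver and fat, had 21.3, 14.7 and 21.8 CPM in WT TAC and 16.5, 19.5 and 35.4 CPM in F3-KO TAC hearts. The mean of the F3-KO TAC group rested on replicate 3. Without it the log2 difference of 0.30 became -0.10. *Scd2*, the form known from brain, had 23.0, 25.8 and 21.3 CPM in WT TAC and 34.5, 26.1 and 20.9 CPM in F3-KO TAC hearts, and here the first heart was the high one. *Elovl6* had 1.26, 1.85 and 1.2 CPM against 2.5, 1.4 and 1.07 CPM, and its interval of -0.76 to 1.18 allowed changes from 0.589-fold to 2.27-fold.

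Of the esterification genes, *Gpam* was separated and *Agpat2* differed little in mean. *Gpam*, which makes lysophosphatidic acid, had 216, 199.7 and 162 CPM in WT TAC and 221, 221 and 235 CPM in F3-KO TAC hearts. The F3-KO TAC hearts were close together while sham hearts of the same gene ran from 130.2 to 274 CPM. The log2 difference of 0.23 had an interval of -0.31 to 0.77, and was 0.12 without WT TAC replicate 3. *Agpat2*, which makes phosphatidic acid, had 51.6, 55.2 and 57.6 CPM against 51.3, 53.5 and 61.6 CPM. Its difference of 0.02 had an interval of -0.27 to 0.31.

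**Figure D3:**
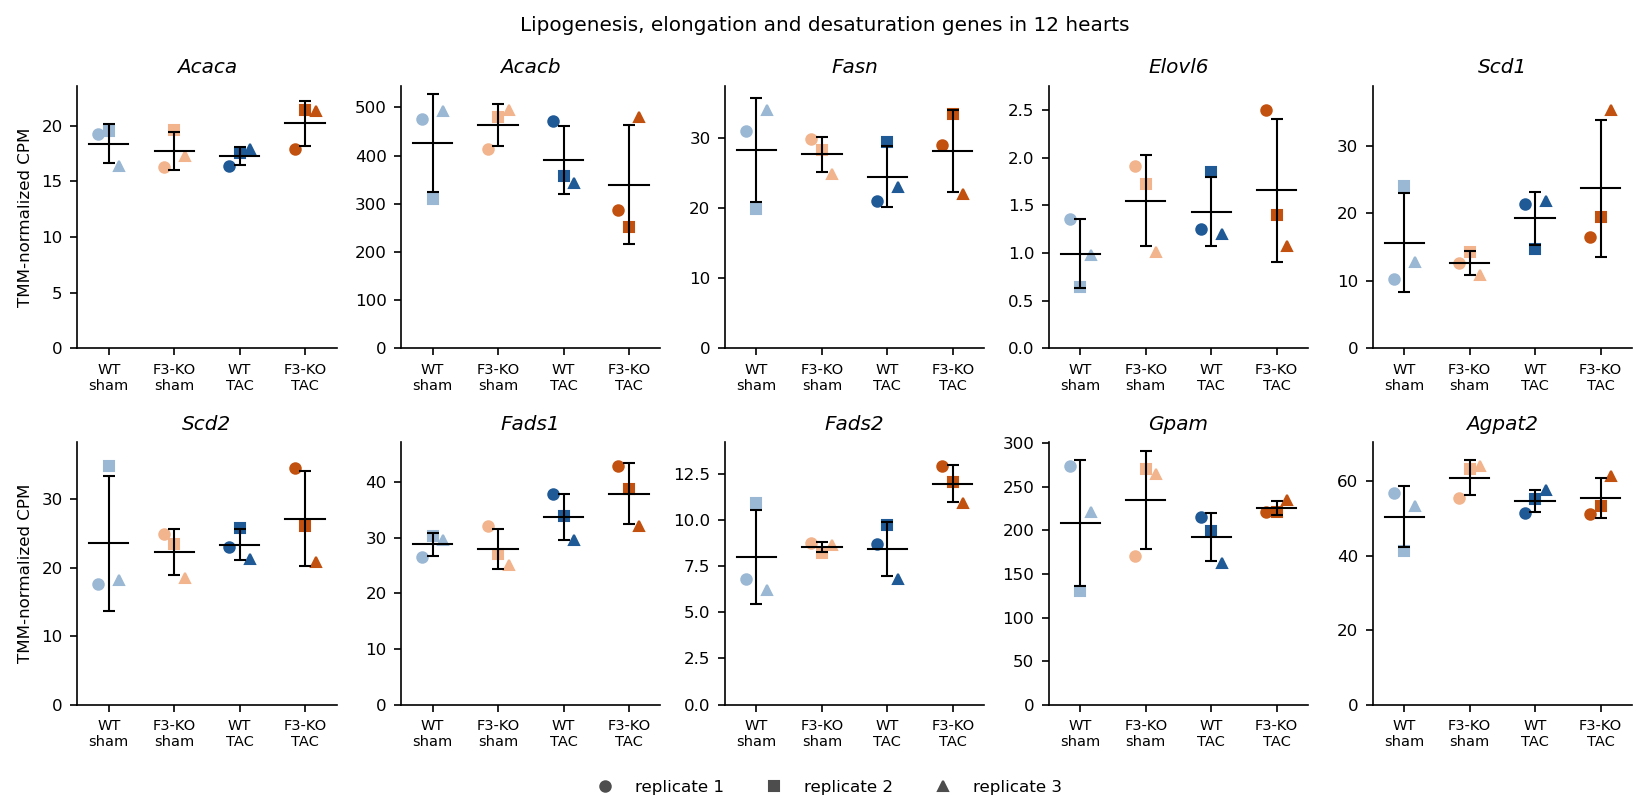
TMM-normalized CPM of the 10 genes, 1 panel a gene, with each heart as a point shaped by replicate number, group means as bars and SD (n = 3) as error bars. The F3-KO TAC points of *Fads2*, at 10.9 to 12.9 CPM, lie above the WT TAC points, while for *Scd1*, *Acacb* and *Elovl6* a single heart widens the error bar.

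The sequences before the starts of *Fads2* and *Gpam* are shown because in these genes every F3-KO TAC heart lay above every WT TAC heart. For *Gpam* the gap was small, 220.9 against 215.9 CPM. RefSeq promoter windows (GRCm38.p6) were found for 7 of the 10 genes, in 8 windows, and *Scd1*, *Scd2* and *Fads1* had no entry. Each printed run is the 250 bases before an annotated start, on the minus strand, 5′ to 3′. They lie at chr19:10101504-10101753 for *Fads2*, chr19:55127239-55127488 for the upstream start of *Gpam* and chr19:55099478-55099727 for its downstream start. Capitals mark a CCAAT box, read as ATTGG on the other strand, or a GC box, GGGCGG, read as CCGCCC on the other strand.
Fads2: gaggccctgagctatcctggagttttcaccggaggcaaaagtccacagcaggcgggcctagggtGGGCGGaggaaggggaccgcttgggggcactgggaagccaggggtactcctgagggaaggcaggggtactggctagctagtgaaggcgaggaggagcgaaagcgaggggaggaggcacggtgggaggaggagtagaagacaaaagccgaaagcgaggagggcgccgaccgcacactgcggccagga
Gpam upstream start: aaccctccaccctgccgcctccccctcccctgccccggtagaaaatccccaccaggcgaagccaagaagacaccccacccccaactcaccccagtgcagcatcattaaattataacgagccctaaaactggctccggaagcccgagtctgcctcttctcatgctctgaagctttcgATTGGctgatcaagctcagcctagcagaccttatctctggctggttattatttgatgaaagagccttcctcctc
Gpam downstream start: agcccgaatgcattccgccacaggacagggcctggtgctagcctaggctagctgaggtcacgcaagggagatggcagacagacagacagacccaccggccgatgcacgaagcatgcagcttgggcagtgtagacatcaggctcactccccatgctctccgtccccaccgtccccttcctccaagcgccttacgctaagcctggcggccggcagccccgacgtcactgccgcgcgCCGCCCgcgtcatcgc

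*Fads2* held 1 GC box. The upstream *Gpam* start held 1 CCAAT box and the downstream start 1 GC box. On both strands, CCAAT was present in 3 of the 8 windows, those of *Acacb*, *Fasn* and upstream *Gpam*, and in 33.8% of 32851 windows of the same length. GGGCGG was also present in 3 of 8, those of *Agpat2*, *Fads2* and downstream *Gpam*, and in 32.7% of all. The E-box CACGTG (6.02% of all windows) and the sterol-element letters TCACNCCAC (1.05%) were in 0 of 8. The *Acaca* window held none of the 4, but its last letters resemble a splice acceptor, so it may lie before an internal exon and not be a promoter. These matches describe letters only.

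In F3-KO hearts, TAC against sham gave its highest fitted values in 3 desaturase genes, none of which passed the test. At an adjusted p under 0.05, 0 of 10 genes were called by edgeR or DESeq2, beside 0% of all genes by edgeR. With the p left unadjusted and a limit of 0.05, edgeR gave 3 of 10, *Scd1*, *Fads1* and *Fads2*, beside 17.1% of all genes. All 3 were higher after TAC, beside 10.6% of all genes, and DESeq2 gave 2, for which no share over all genes was counted. In the same 3 genes every F3-KO TAC heart lay above every F3-KO sham heart, beside 11.5% of all genes. These values share the F3-KO TAC hearts with the comparison above. Summed markers of every cell type listed except endothelial cells were separated between the same groups. Of all single genes tested, 22.9% were separated there, higher or lower. Cardiomyocyte markers were 77124 to 86023 CPM in F3-KO sham and 52256 to 65127 CPM in F3-KO TAC hearts. In the same order, fibroblast markers were 795 to 1117 and 1267 to 4546 CPM, and macrophage markers 274 to 331 and 419 to 660 CPM. Adipocyte markers were 0.087 to 1.14 and 2.85 to 6.04 CPM, and brown adipocyte markers 31.0 to 33.6 and 27.0 to 30.5 CPM. Endothelial markers overlapped, at 794 to 1127 and 629 to 1290 CPM. Within the fibroblast list only *Pdgfra* was separated by itself. In the cardiomyocyte list only *Myh6* and *Tnni3* were, and in the macrophage list *Adgre1*, *Csf1r*, *Mrc1* and *Lyz2*. Of the adipocyte and brown adipocyte lists only *Car3* and *Cidea* passed the filter on low counts, so each of these sums rested mainly on a single gene. The part of these markers in the values of the 3 desaturase genes was not tested.

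*Scd1* had 12.6, 14.4 and 10.9 CPM in F3-KO sham hearts, below the 16.5, 19.5 and 35.4 CPM after TAC. The fold change was 1.88 (log2 0.91 ± 0.34, SE, 95% interval 0.18 to 1.64, adjusted p = 0.22, edgeR), and 0.51 on the log2 scale without F3-KO TAC replicate 3. *Fads1* had 32.0, 27.0 and 25.0 CPM in F3-KO sham hearts, of which the highest lay just under the lowest TAC heart at 32.1 CPM. Its fold change was 1.35 (log2 0.44 ± 0.15, SE, adjusted p = 0.19, edgeR). *Fads2* had 8.73, 8.22 and 8.61 CPM in F3-KO sham hearts, the tightest group of the gene, and a fold change of 1.4 (log2 0.49 ± 0.21, SE, adjusted p = 0.27, edgeR). *Acacb* went the other way, from 413, 480.1 and 495 CPM in sham to 286, 252 and 481 CPM after TAC, with an interval of -0.997 to 0.10 around -0.45. Without F3-KO TAC replicate 3 its value was -0.78 (adjusted p = 0.0595, edgeR). The other 6 genes had fitted values from -0.14 (*Agpat2*) to 0.28 (*Scd2*).

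In WT hearts, TAC against sham gave 0 of 10 genes at an adjusted p under 0.05 by edgeR and DESeq2, beside 0% of all genes by edgeR. By edgeR's unadjusted p of at most 0.05 it also gave 0 of 10, beside 6.28% of all genes. No gene of the 10 had separated groups, beside 9.1% of all genes. The fitted value was above 0 for 5 of 10, beside 50% of all genes. *Fads1* had 26.5, 30.3 and 29.5 CPM in WT sham and 37.9, 33.8 and 29.5 CPM in WT TAC hearts, a log2 difference of 0.23 with an interval of -0.09 to 0.55. The first and second TAC hearts were above the 3 sham hearts and the third was within them. *Scd1* had 10.3, 24.0 and 12.8 CPM in WT sham hearts, and its difference of 0.30 became 0.74 without WT sham replicate 2 (lowest adjusted p without any one heart 0.59, edgeR). *Elovl6* had 1.36, 0.642 and 0.982 CPM in WT sham hearts and the largest fitted value, 0.53, with an interval of -0.48 to 1.54.

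Averaged over both genotypes, *Fads1* and *Scd1* were the members with the lowest p for TAC against sham. At an adjusted p under 0.05, 0 of 10 genes were called by edgeR or DESeq2, beside 0.078% of all genes by edgeR. Both tools gave 2 of 10 with the p left unadjusted and a limit of 0.05, beside 17.8% of all genes by edgeR. *Fads1* was 1.26-fold higher on average (log2 0.33 ± 0.10, SE, 95% interval 0.11 to 0.56, adjusted p = 0.15, edgeR). *Scd1* was 1.52-fold higher (log2 0.60 ± 0.24, SE, adjusted p = 0.21, edgeR). Without F3-KO TAC replicate 3, *Fads1* passed the test with an adjusted p of 0.0486 (edgeR). Without TAC replicate 3 of both genotypes *Fads1* passed with 0.42 on the log2 scale and an adjusted p of 0.0305. Of other genes of the pathway, *Slc25a1*, *Mlycd* and *Dgat2* also passed in each of these settings. The share of all genes that passed there was not counted, so the calls of *Fads1* have no background. Over all the alternatives tried, the value of *Fads1* ran from 0.28 to 0.42 and its adjusted p from 0.0305 to 0.34. The median of the 10 genes was 0.09, against 0.0045 over all genes.

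**Figure D4:**
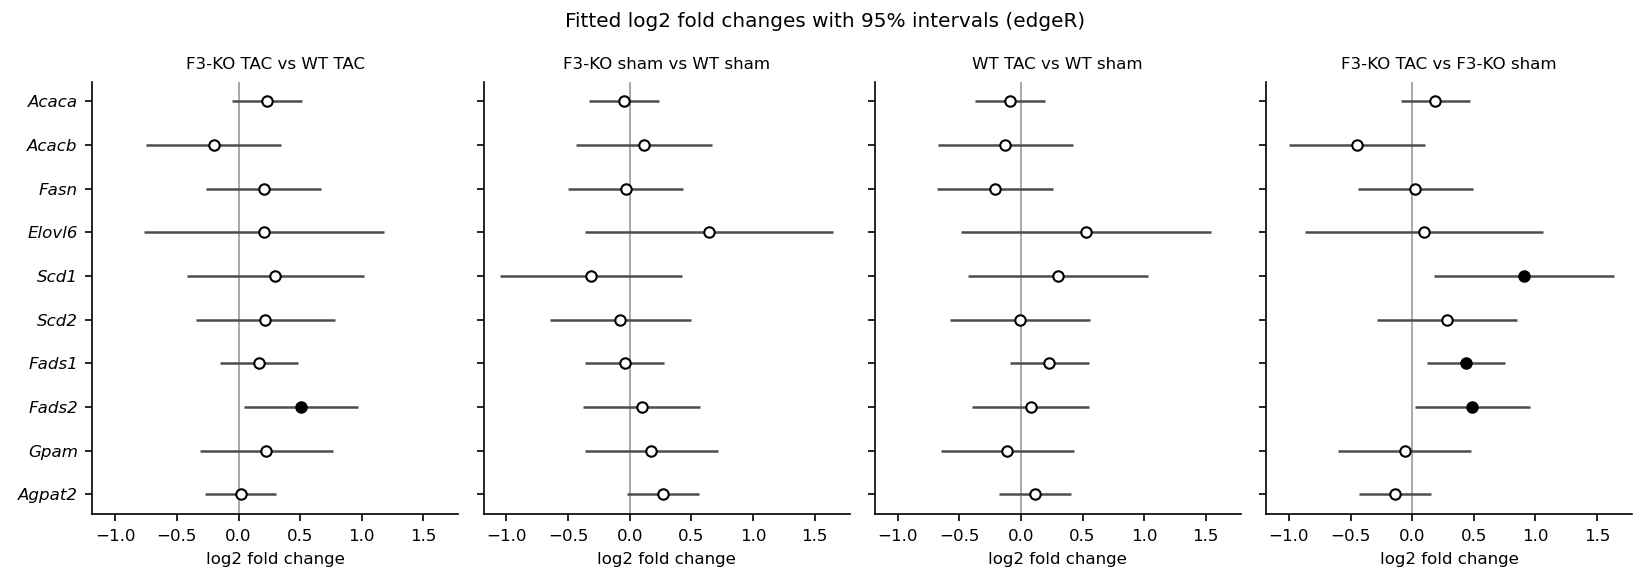
Fitted log2 fold changes of the 10 genes (points) with 95% intervals (lines) from edgeR, 1 panel a comparison. Filled points have an unadjusted p of at most 0.05, namely *Fads2* in F3-KO TAC against WT TAC, and *Scd1*, *Fads1* and *Fads2* in F3-KO TAC against F3-KO sham. None has an adjusted p under 0.05.

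After sham surgery the genotypes differed in none of the 10 genes by the test. At an adjusted p under 0.05, 0 of 10 were called by edgeR or DESeq2, beside 0.106% of all genes by edgeR, and with the p left unadjusted and a limit of 0.05 edgeR gave 0 of 10, beside 6.02%. No gene of the 10 had separated groups, beside 13.7% of all genes. *Agpat2* had the lowest p. It stood at 56.8, 41.3 and 53.4 CPM in WT sham and 55.6, 63.3 and 64.1 CPM in F3-KO sham hearts, so that one F3-KO heart lay within the WT range. The log2 difference was 0.27 (95% interval -0.02 to 0.56, adjusted p = 0.88, edgeR) and 0.15 without WT sham replicate 2. *Elovl6* had the largest fitted value, from 1.36, 0.642 and 0.982 CPM in WT sham to 1.91, 1.73 and 1.01 CPM in F3-KO sham hearts (0.64, interval -0.37 to 1.65). *Fads2*, the gene with the lowest p after TAC, differed here by 0.10, with an interval of -0.38 to 0.57.

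Averaged over both operations, F3-KO against WT gave 0 of 10 genes at an adjusted p under 0.05 by edgeR and DESeq2, beside 0.412% of all genes by edgeR, and 0 of 10 at edgeR's unadjusted p of at most 0.05, beside 10.1%. *Fads2* had the lowest p, with a log2 difference of 0.30 (95% interval -0.03 to 0.63, adjusted p = 0.53, edgeR). *Elovl6* had the highest fitted value, 0.42 (interval -0.27 to 1.12). Whether the genotype difference changed with TAC was tested by the interaction, which gave 0 of 10 genes at an adjusted p under 0.05 by edgeR and DESeq2, beside 0% of all genes by edgeR, and 0 of 10 at the unadjusted p, beside 4.48%. The interaction value of *Fads2* was 0.41 (interval -0.25 to 1.07) and that of *Acaca*, with the lowest p of the list, 0.28 (interval -0.12 to 0.68, adjusted p = 0.95, edgeR). The larger *Fads2* value after TAC than after sham was therefore not shown to differ between the operations.

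Ratios between paired genes in the same heart do not depend on library scaling. *Acaca* counts were 0.0332 to 0.0631 of *Acacb* counts in the 9 hearts outside the F3-KO TAC group, whereas the F3-KO TAC hearts had 0.0626, 0.0851 and 0.0444 in replicate order. Every F3-KO TAC heart lay above every F3-KO sham heart, of which the highest had 0.0409, while the WT groups overlapped. Over both genotypes, TAC minus sham was 0.36 on the log2 scale (exact permutation test within genotype, two-sided, p = 0.165, adjusted p = 0.33 over 6 ratio tests). The ratio of *Scd1* to *Scd2* was 0.506 to 0.701 in the 6 sham hearts. In TAC hearts it spread from 0.476 to 1.70, the highest in F3-KO TAC replicate 3, and TAC minus sham was 0.44 (exact permutation test, p = 0.15, adjusted p = 0.33). The ratio of *Fads1* to *Fads2* was 2.96 to 3.32 in F3-KO TAC and 3.49 to 4.35 in WT TAC hearts, so that these groups were separated. Over both operations F3-KO minus WT was -0.27 (exact permutation test within operation, p = 0.07, adjusted p = 0.33), the WT sham hearts covering 2.78 to 4.75.

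**Figure D5:**
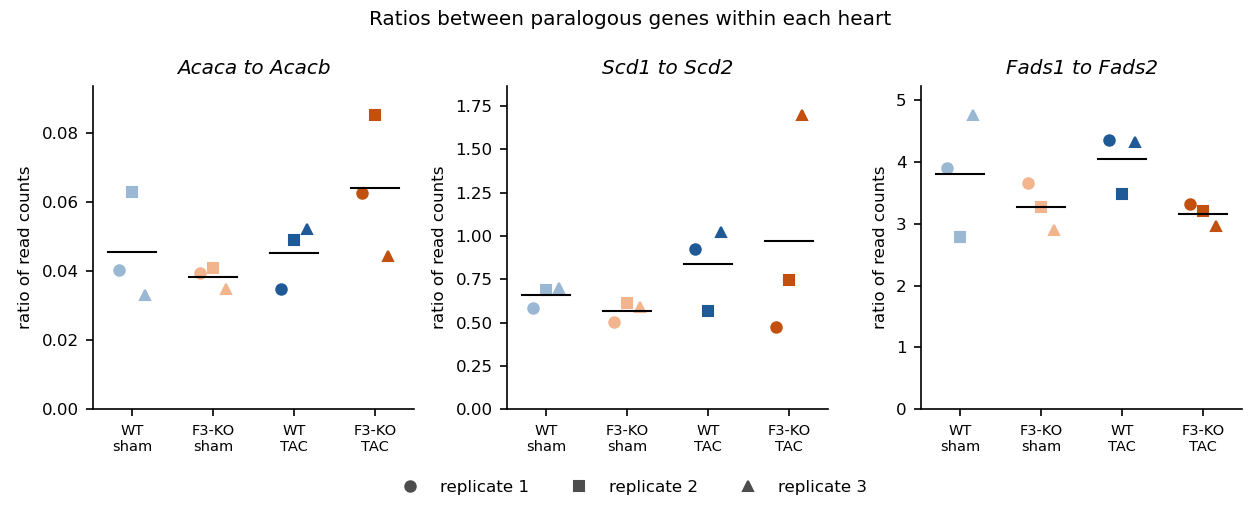
Ratios of read counts between *Acaca* and *Acacb*, *Scd1* and *Scd2*, and *Fads1* and *Fads2* in each heart, with points shaped by replicate number and bars at the group means. The *Fads1* to *Fads2* ratio is 2.96 to 3.32 in F3-KO TAC hearts and 3.49 to 4.35 in WT TAC hearts, and the *Scd1* to *Scd2* ratio reaches 1.70 in 1 heart.

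The counts of *Scd1*, *Scd2* and *Fads2* were fractional in 91.7% of hearts, and those of *Gpam* and *Agpat2* in 100% of hearts. Fractional counts arise where a counting tool divides reads among features. *Scd1* and *Scd2* have near relatives in *Scd3* and *Scd4*, so their split is uncertain. *Acaca* overlaps *Tada2a* in the annotation, and the strand setting of the counting was not given in the sources used here.

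None of 58 other genes of the pathway was called by edgeR in any of the 7 comparisons. They comprised substrate supply (11 genes), regulators (13), other elongation (12, of which 8 passed the filter), other desaturation (8, of which 7) and other glycerolipid synthesis (14, of which 11). With the p left unadjusted and a limit of 0.05, edgeR gave 11 of the 50 genes tested for TAC against sham averaged over genotypes, 5 higher and 6 lower, which was 22% beside 17.8% of all genes, and DESeq2 gave 14. With an adjusted p, DESeq2 called *Hacd4* and *Lpin1* there and *Dgat2* in F3-KO TAC against F3-KO sham. In F3-KO TAC against WT TAC, unadjusted p values gave 5 of 50 by edgeR, the same 10% as over all genes, and 6 by DESeq2. No share over all genes was counted for DESeq2, so its counts here have none beside them.

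Up to 3 genes of each pathway list, those with the lowest p in TAC against sham, are described here, so that their roles were set by the choice. None was called by edgeR, and no gene of the desaturation list had an unadjusted p of at most 0.05. *Hacd4*, a dehydratase of the elongation cycle, had means of 10.6 ± 2.6 CPM (SD, n = 3) in WT hearts after sham and 16.3 ± 7.4 CPM after TAC, while F3-KO hearts had 9.26 ± 1.85 CPM after sham and 16.97 ± 1.25 CPM after TAC. Its averaged log2 difference was 0.75 (adjusted p = 0.11, edgeR). *Hsd17b12* (0.31) and *Tecr* (-0.29), reductases of the same cycle, had opposite signs. *Lpin2* (0.43) and *Lpin1* (-0.31), phosphatases that turn phosphatidic acid into diacylglycerol, also had opposite signs, and *Dgat2*, the last enzyme of triglyceride synthesis, had -0.57 (adjusted p = 0.19, edgeR). *Slc25a1*, the mitochondrial citrate carrier that supplies carbon for lipogenesis, had 0.55 (adjusted p = 0.17, edgeR), *Acsl5*, an acyl-CoA synthetase, 0.24 and *Mlycd*, which breaks down malonyl-CoA, -0.30. The regulators *Mid1ip1*, an activator of acetyl-CoA carboxylase, *Ppara*, the receptor that drives fatty acid oxidation genes, and *Srebf1*, the lipogenic transcription factor, had -0.49, -0.28 and -0.32 (adjusted p = 0.20, 0.27 and 0.28, edgeR). Of the desaturation list, *Cyb5r3*, which passes electrons to desaturases, had 0.41, *Fads6* -0.55 and *Fads3* 0.10. Beside them the median over all genes was 0.0045.

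Cell type markers are given because a whole heart was sequenced. The 7 cardiomyocyte markers summed to 52256 to 65127 CPM in F3-KO TAC and 61733 to 91016 CPM in WT TAC hearts. That overlap depends on scaling to library totals alone. F3-KO TAC replicate 1 had a TMM factor of 1.087 and WT TAC replicate 1 one of 1.026. With the TMM correction, the cardiomyocyte sums of the TAC groups are separated, lower in F3-KO, but only just. The highest F3-KO TAC sum then lies close under the lowest WT TAC sum, each in replicate 1. No gene of the 7 was separated by itself between these groups, beside 11.4% of all genes tested. Summed fibroblast markers (6 of 6 genes in the table) were 1267 to 4546 CPM in F3-KO TAC and 954 to 1985 CPM in WT TAC hearts, and macrophage markers (6 of 6) were 419 to 660 and 333 to 569 CPM. Of 7 adipocyte markers 6 were in the table. They summed to 2.85 to 6.04 CPM in F3-KO TAC and 0.372 to 1.29 CPM in WT TAC hearts. *Car3* alone stood at 2.20 to 5.69 CPM, with the TMM correction, in F3-KO TAC hearts. The defining fat cell genes *Adipoq* and *Plin1* were at or near 0, at most 0.379 and 0.304 CPM in any heart. Of 4 brown fat markers, *Ucp1*, *Elovl3* and *Otop1* were at most 0.092, 0.165 and 0.064 CPM in any heart. The fourth, *Cidea*, was well expressed, and its TAC groups were separated. It had 24.8 to 31.5 CPM in F3-KO TAC and 37.8 to 42.2 CPM in WT TAC hearts. The part of the fibroblast, macrophage, cardiomyocyte and fat cell marker values in the values of *Fads2*, *Acaca* and *Gpam* was not tested.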

How the data were processed

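The authors deposited estimated counts per gene, not normalized, for 12 hearts. Per the labels and methods, reads were filtered with SOAPnuke and aligned with HISAT2 (2.0.4) and STAR (2.3.0), tools that the submitters' processing notes list together with DESeq2. The counting tool and strand setting were not given in the sources used here. Of the values, 40.6% were not whole, and all were rounded before testing, since tests had been planned for whole counts. The own tables of 11 hearts held the same values as the joint table used here, and that of WT sham replicate 2 breaks off early. Groups and replicate numbers came from the labels.

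Analyses used R 4.3.3 with edgeR 4.0.16, limma 3.58.1 and DESeq2 1.42.0, and Python 3.11.15. Genes were filtered with filterByExpr (minimum count 10), which removed 5214 genes with 0.0773% of the counts, scaled by TMM (factors 0.931 to 1.09) and tested by quasi-likelihood in edgeR, in 1 model of 4 groups and 12 libraries (8 residual degrees of freedom, biological coefficient of variation 0.232). Contrasts gave 7 comparisons, with Benjamini-Hochberg adjustment over 14094 genes and calls at an adjusted p under 0.05. Intervals are 95% intervals of the fit. The edgeR, limma and DESeq2 fits were tested on simulated counts. The ratio tests, marker sums, levels per kb and motif counts were not. Log2 CPM used a prior count of 2. Exon lengths for levels per kb came from GENCODE M21. That annotation may differ from the one used for counting, and genome builds are listed in the notes as mm8 and mm9 without a role, so no positions in the build of the count table are given. Promoter windows carry the GRCm38.p6 positions of RefSeq.

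Replicates of a group differed by more than sampling noise (chi-square per degree of freedom 9.84 to 79.0). Nothing says that replicate numbers mark a litter or day. The edgeR p-values weigh a group difference against a spread between hearts that was estimated over all 4 groups. They do not describe the spread within the groups compared. A limit of 3 counts came to 0.209 to 0.288 CPM, which covers counting error only. Members and lists were chosen with earlier results of these data known. Named were the 10 genes, *Fabp3*, hypertrophy genes, and up to 3 genes a pathway list with the lowest p in TAC against sham. Related genes in the levels per kb, and pathway genes called by an alternative, were named after their values were seen. Alternatives were DESeq2's Wald test, its size factors, library totals alone, limma-trend, no filter, a replicate block, only the groups compared, unadjusted p values, and leaving out hearts.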

Additional observations from a re-analysis of the deposited data

How the results depend on the processing

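With 3 hearts a group, the printed intervals give the precision of each difference. Of the 10 genes, 0 were called in each comparison under DESeq2's Wald test, its size factors, library totals alone, limma-trend, no filter and only the groups compared. Unadjusted p values in edgeR gave 1, 0, 0, 3, 2, 0 and 0 of the 10 genes, and 5, 6, 4, 8, 11, 10 and 1 of the 50 pathway genes tested, beside 10, 6.02, 6.28, 17.1, 17.8, 10.1 and 4.48% of all genes, for F3-KO TAC against WT TAC, F3-KO sham against WT sham, WT TAC against sham, F3-KO TAC against sham, TAC averaged, genotype averaged and the interaction. In DESeq2 they gave 1, 0, 0, 2, 2, 0 and 0 of the 10 genes and 6, 6, 6, 12, 14, 11 and 2 pathway genes. Shares over all genes were counted for the main edgeR fit alone. The counts of DESeq2 and of the other alternatives therefore have no share to be read against. Adjusted calls of pathway genes were 1 (*Dgat2*) in F3-KO TAC against sham and 2 (*Hacd4*, *Lpin1*) in TAC averaged with DESeq2, and 1 (*Hacd1*) in F3-KO sham against WT sham with only the groups compared.

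Leaving out TAC replicate 3 of both genotypes gave 1 of the 10 genes (*Fads1*, 0.42) and 4 pathway genes (*Slc25a1*, *Mlycd*, *Hacd4*, *Dgat2*) in TAC averaged, and 2 (*Mlycd*, *Dgat2*) in F3-KO TAC against sham. Leaving out single hearts gave 0 to 1 of the 10 genes (*Fads1*) and 0 to 3 pathway genes (*Slc25a1*, *Mlycd*, *Dgat2*) in TAC averaged, and 0 to 2 (*Mlycd*, *Dgat2*) in F3-KO TAC against sham, the highest counts each without F3-KO TAC replicate 3. How many of all genes passed in these settings was not counted, so these calls cannot be set beside a share. The cause was not tested.

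Same-numbered hearts had correlations of -0.14 to 0.36 over 18 pairs. Between WT TAC and F3-KO TAC hearts they were 0.17, 0.061 and 0.36 in replicate order, and the last was the highest of all. The source of that likeness was not tested. The labels do not say that the numbers pair the hearts, and they were not taken to. With the replicate block 0 of the 10 genes and 0 pathway genes were called in each comparison.

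Of the fold changes in the report, those that changed sign were of small values or rested on 1 heart. In F3-KO TAC against WT TAC, *Agpat2* became -0.0083 with only the groups compared and -0.056 without TAC replicate 3 of both genotypes, and *Scd1* became -0.033 without those. Leaving out single hearts moved *Agpat2* there from -0.065 to 0.064, *Scd1* from -0.10 to 0.50 and *Elovl6* from -0.22 to 0.44, and *Fads2* in F3-KO sham against WT sham from -0.056 to 0.39. The ratio of *Scd1* to *Scd2* (F3-KO minus WT) ran from -0.33 to 0.13 and that of *Fads1* to *Fads2* (TAC minus sham) from -0.069 to 0.12. Over all 70 fold changes of the 10 genes in 7 comparisons, 56 of 600 values without 1 heart and 13 of 520 under the other settings changed sign, and the largest original value among these was 0.31.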

Other observations

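The genes most alike to each of the 10 in their heart-to-heart scatter were listed as a description, by Pearson's r of log2 CPM centred on group means over 12 hearts that share library scaling. The highest r was with *Usp34* for *Acaca* (0.92), *Zkscan7* for *Acacb* (0.98), *Myrfl* for *Fasn* (0.95), *Bms1* for *Elovl6* (0.92), *Eva1c* for *Scd1* (0.97), *Itgam* for *Scd2* (0.96), *Tcaf2* for *Fads1* (0.96), *Pde10a* for *Fads2* (0.95), *Npc1* for *Gpam* (0.98) and *Arl8b* for *Agpat2* (0.98). Each is the top of 14094 genes, and none of the 10 genes was the closest match of another. *Scd4*, a desaturase of the same family as *Scd1*, had 131 CPM in WT TAC replicate 1 against 10.97 to 50.1 CPM in the other 11 hearts, with no such excess of *Scd1* (21.3 CPM) or *Scd2* (23.0 CPM) in that heart.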
